A study of Mus musculus with 20 samples.

Results

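Ribosome footprints of starved mouse embryonic fibroblasts (MEFs, strain C57BL/6J) with a knockout of Ogt were compared with those of starved control MEFs by Ribo-seq. The comparison took 4 of the 20 libraries of the series, chosen by their titles, with 2 from the starved knockout and 2 from the starved control. All 4 came from cells kept for 2 h without amino acids, in DMEM with "DFBS", an abbreviation that is left unexplained in the labels. Knockout was brought about by 0.5 µM 4-OHT for 24 h and then 24 h in fresh medium. The protocol mentions 4-OHT for the knockout alone, so its own effect and that of losing Ogt cannot be told apart. The labels name neither the recombinase nor the clone, and they do not say whether replicates were separate cultures. All p-values therefore measure the spread between libraries, which may be technical. Fed control and fed knockout cells, with 2 Ribo-seq libraries each, received no starvation and served as a second setting of the same contrast. A further 4 Ribo-seq libraries came from cells given the O-GlcNAcase inhibitor Thiamet-G. They entered the estimate of the spread, the scaling between libraries and the filter on the mean level, but neither side of a contrast.

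Ogt encodes O-GlcNAc transferase, the single enzyme of animal cells that adds the sugar N-acetylglucosamine to serines and threonines of nuclear and cytosolic proteins. Lack of amino acids activates the integrated stress response, in which phosphorylation of the initiation factor eIF2 lowers general initiation while mRNAs with upstream open reading frames, such as that of the transcription factor Atf4, are translated through reinitiation. eIF3 is the large initiation factor that scaffolds the 40S subunit, and eIF3a is its largest subunit. The title of the series ties O-GlcNAc on eIF3a to reinitiation under this stress, and the comparison asks whether ribosomes were spread differently over transcripts in starved cells that lack the transferase.

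The files give transcripts by Ensembl identifier without symbols, and 0 identifiers could be matched to a gene. The levels of Ogt, of fibroblast markers and of Atf4 were therefore not analysed here, and the labelled knockout was not checked against its target. Transcripts are described by their coding length, their level and their behaviour across libraries, and 2 identifiers are printed for each direction.

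The starved libraries differed in depth. Replicate 1 of the control held 5846130 reads and replicate 2 held 1505367, while the knockout held 2924387 and 844403 reads. A listed transcript had a median of 200 and 54 reads in the control libraries and of 111 and 29 in the knockout libraries. The replicate-1 files almost never list a transcript with fewer than 5 reads (0.00969% and 0.00981% of listed transcripts), whereas 10.2% and 14.2% of those listed in the replicate-2 files had fewer. Of 10936 transcripts that averaged 1 RPKM or more over the Ribo-seq libraries (RPKM is the number of reads scaled to transcript length and to the library total), 9307 were listed in all 4 starved files. Those listed in 3 of the 4 were missing most often from knockout replicate 2, which lacked 368 of them, against 99 for knockout replicate 1, 202 for control replicate 2 and 35 for control replicate 1. Every level below is relative to the library, so a general change of translation would not be seen.

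No transcript passed the test between starved knockout and starved control cells. Limma on log2(RPKM + 1), with Benjamini-Hochberg adjustment over all transcripts, called 0 of 10936, or 0%. An unadjusted p under 0.05 was reached by 147 transcripts (1.34%), 76 higher and 71 lower in the knockout, where evenly spread p-values would put 5% below it, and the smallest p was 0.000179. The median standard error of a log2 fold change was 0.88, and the median half-width of its 95% interval was 1.92, that is 3.78-fold in either direction. Values were simulated for this contrast on the log2(RPKM + 1) scale, without sampling of reads. Known changes were placed only in transcripts at or above the median level. Of these, 0 of 67 changed 2-fold were recovered, 3 of 67 changed 4-fold and 13 of 66 changed 8-fold. This simulation carried no deviations shared by libraries of the same replicate number and used no replicate block. In the fits with the replicate number as a block, the median half-width was 1.86 over the 12 libraries. These include starved Thiamet-G, whose deviations ran against those of the other groups (correlations of -0.394 to -0.274). Without the Thiamet-G libraries the half-width was 1.59, with 3 residual degrees of freedom. That fit called 0 transcripts, and 339 (3.14%) had an unadjusted limma p under 0.05. Over the 4 starved libraries the half-width was 1.49, with 1 residual degree of freedom. The knockout effect in starved cells was also set against that in fed cells by an interaction term, which called 0 of 10936 transcripts (0%) at a smallest unadjusted p of 0.00264 and with 216 (1.98%) under 0.05. Limma-voom on reads recovered from the RPKM values likewise called 0 transcripts for both questions, with 37 (0.374%) and 144 (1.46%) under an unadjusted p of 0.05.

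Only the replicate-1 libraries of the 2 genotypes were close to each other. Over 9306 transcripts the log2 ratio of knockout to control had a standard deviation of 0.53 in replicate 1, where counting error accounts for 0.24. In replicate 2 the standard deviation was 1.58, with a counting error of 0.58. The control libraries differed from each other by 1.55 and the knockout libraries by 1.43. The knockout and control libraries of replicate 1 thus lay closer together than the replicates of either genotype, with a Pearson correlation of log2 reads of 0.965 over transcripts, against 0.728 between the control libraries, 0.749 between the knockout libraries and 0.731 within replicate 2. Among 783 transcripts with at least 200 reads in every starved library, the standard deviation was 0.53 in replicate 1 and 0.72 in replicate 2. The counting errors were 0.060 and 0.099. It was 1.10 between the control libraries and 0.91 between the knockout libraries. Pearson correlations were 0.899 and 0.739 within replicates 1 and 2, against 0.529 and 0.609 between the control and the knockout libraries. Among these transcripts, replicate 2 was thus also closer across genotypes than the replicates of either genotype. These transcripts were selected for depth, and with it for level, so the parts of depth and level in the wider spread of replicate 2 were not told apart. Deviations of the libraries from their group means also followed the replicate number, with a correlation of 0.453 between starved control and starved knockout over transcripts.

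**Figure D1:**
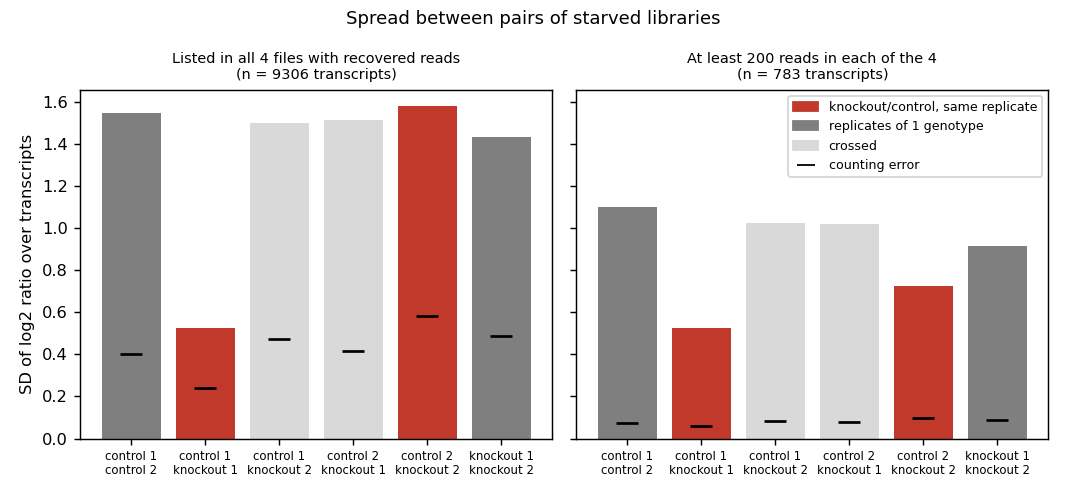
Standard deviation over transcripts of the log2 ratio between each pair of starved Ribo-seq libraries (bars) and the part that counting error gives (black lines), for transcripts listed in all 4 files and for those with at least 200 reads in each. The bar for control 1 and knockout 1 is the lowest in both panels, at 0.53.

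The replicates gave nearly unrelated differences between genotypes. Within each replicate number the log2 ratio of knockout to control was taken on median-scaled RPKM with 1 RPKM added to each value. Over the 9307 transcripts listed in all 4 files, the ratio of replicate 1 and that of replicate 2 had a Pearson correlation of 0.0572 and a Spearman correlation of 0.065, and 4886 transcripts (52.5%) had the same sign. These are descriptions across transcripts of the same libraries, which are not independent replicates. In replicate 1, 372 transcripts (4.00%) differed at least 2-fold, 244 upward and 128 downward. In replicate 2, 3824 transcripts (41.1%) did, 1939 upward and 1885 downward. The 783 deeply read transcripts had a correlation of 0.0589, and only 3 of them were 2-fold higher and 3 were 2-fold lower in both replicates, while 8 moved in opposite directions. Fed cells served as the measure of what the same assay gave for the same contrast. There the correlation between replicates was 0.161 over 9016 transcripts listed in all 8 files, against 0.0563 for starved cells over the same transcripts.

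**Figure D2:**
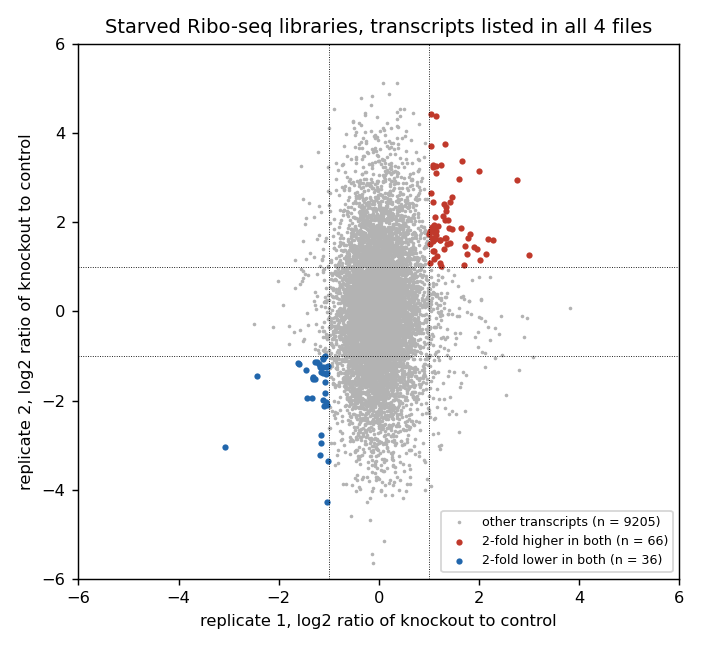
Log2 ratio of starved knockout to starved control in replicate 1 (horizontal) and replicate 2 (vertical), 1 point per transcript listed in all 4 files, with dotted lines at 2-fold. The cloud is narrow along replicate 1 and wide along replicate 2, and 66 transcripts (red) and 36 (blue) lie beyond 2-fold in the same direction in both.

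Transcripts with the most footprints shifted differently in the replicates. The 100 transcripts with the largest mean share of a starved library's reads had a median of 1978 RPKM and a median coding length of 766.5 nt. This share is not scaled to length. Their median log2 ratio was -0.27 in replicate 1, with 28 of 100 above 0. In replicate 2 their median was 0.10, with 54 of 100 above 0. With transcripts divided into 5 classes of level, the median log2 ratio went from 0.033 in the lowest class to -0.11 in the highest in replicate 1, while in replicate 2 it was 0.039, -0.070, -0.068, -0.030 and 0.12 from the lowest class to the highest. The most highly translated class was therefore slightly lower in the knockout of replicate 1 and slightly higher in that of replicate 2, with no steady order over the classes in replicate 2.

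The most abundant transcript, with a coding length of 270 nt, shows the pattern of the libraries. Its level was 32451 and 8545 RPKM in the control and 37278 and 35866 RPKM in the knockout, so that control replicate 2 alone stood low. In fed cells it had 34759 and 11598 RPKM in the control and 36090 and 7909 RPKM in the knockout, with replicate 2 the lower library in both, so a low replicate 2 was seen in 3 of the 4 groups. The transcript second in abundance, of 360 nt, had 6095 and 17209 RPKM in the control and 21147 and 21366 RPKM in the knockout. Here control replicate 1 alone stood low, and in both transcripts the knockout libraries lay above the control libraries without overlap. The third, of 381 nt, had 13769 and 10418 RPKM in the control and 4672 and 14674 RPKM in the knockout, and its groups overlapped. None of these passed limma's test, where the log2 fold changes were 1.09 ± 0.92 (SE), 1.01 ± 0.64 and -0.58 ± 1.04, each with an adjusted p of 1. Among the 100 most read transcripts of each library, 81 were common to control 1 and knockout 1, 56 to control 2 and knockout 2, 46 to the control libraries and 52 to the knockout libraries.

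Coding length was examined because the fed ratio of knockout to control followed it in replicate 1. Spearman's correlation with length was 0.466 there, but 0.038 in fed replicate 2. Coding lengths were recovered from the RPKM values, and short coding regions include those of many ribosomal, mitochondrial and histone proteins, though the identifiers do not allow such classes to be drawn here. In starved cells the medians by length lay near 0 in replicate 1, and in replicate 2 they were highest for the shortest class. Over 167 transcripts of at most 300 nt the median log2 ratio was 0.033 in replicate 1 and 0.33 in replicate 2. Over 1039 transcripts of 301 to 600 nt it was -0.026 and 0.15, over 2781 transcripts of 1501 to 3000 nt it was -0.059 and -0.068, and over 1273 transcripts of more than 3000 nt it was -0.048 and -0.046. In fed cells the same classes had medians of -1.34, -1.06, 0.39 and 0.43 in replicate 1, and of -0.36, -0.23, 0.090 and -0.035 in replicate 2. Of the 1206 transcripts of at most 600 nt listed in all 8 files, 586 lay above 0 in starved replicate 1 and 670 in starved replicate 2, against 133 and 481 in fed cells. Spearman's correlation of the ratio with coding length over 9016 transcripts was -0.041 and -0.060 in starved cells and 0.466 and 0.038 in fed cells.

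**Figure D3:**
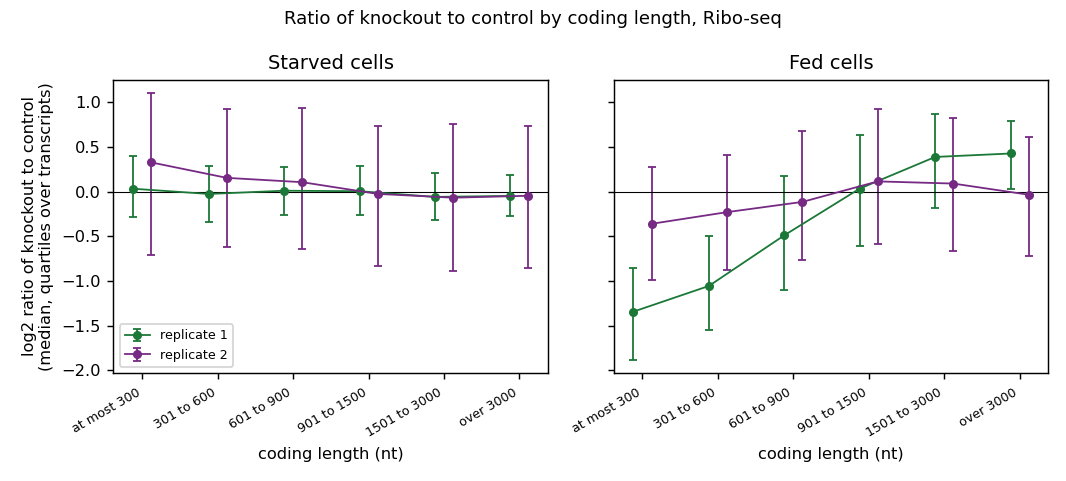
Median log2 ratio of knockout to control by class of coding length in nucleotides, in starved (left) and fed (right) cells, with bars from the lower to the upper quartile over transcripts. The starved medians stay between -0.068 and 0.33, whereas the fed medians of replicate 1 climb from -1.34 to 0.43.

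The share of all reads that fell on coding regions of at most 600 nt gives the same comparison as 1 value for each library. It was 21.2% and 27.2% in the starved control and 21.7% and 31.0% in the starved knockout. The groups overlapped, and replicate 2 was the higher library in both. The means were 24.2% ± 4.29 (SD, n = 2) and 26.4% ± 6.52 (SD, n = 2), a difference of 2.17 percentage points with a two-sided exact permutation p of 0.667. The difference was 0.590 points within replicate 1 and 3.75 points within replicate 2. In fed cells the share was 43.3% and 34.6% in the control and 25.3% and 28.4% in the knockout, with no overlap. The knockout minus the control was -18.0 points in replicate 1 and -6.14 points in replicate 2. The two-sided exact permutation p between the fed groups was 0.333. The starved difference exceeded the fed one by 14.3 points, with an exact permutation p of 0.333. That test permuted the 2 starved and 2 fed within-replicate differences, without pairing them by replicate number. With 2 values a group, 0.333 is the smallest p that can be reached. The share of reads on coding regions of more than 3000 nt was 9.51% and 7.57% in the starved control and 9.63% and 6.03% in the starved knockout. The difference of means was -0.711 points (exact permutation p = 1), and it was 0.118 points in replicate 1 and -1.54 points in replicate 2.

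**Figure D4:**
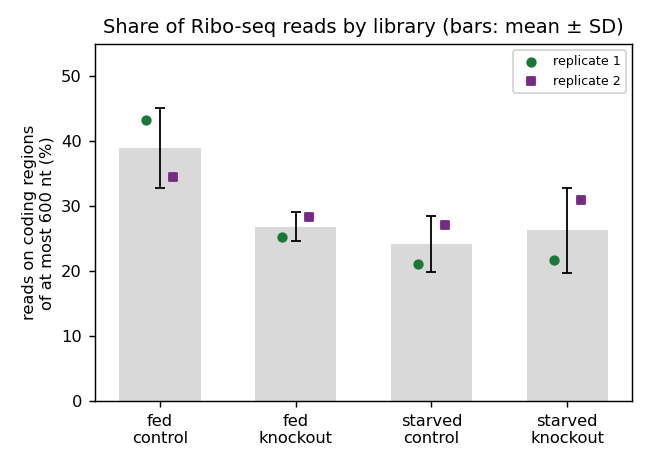
Percentage of Ribo-seq reads on coding regions of at most 600 nt in each library (points), with the mean and SD of the 2 libraries of a group (bars). Starved knockout and starved control overlap, at 21.7% and 31.0% against 21.2% and 27.2%, and the fed control libraries are the highest, at 43.3% and 34.6%.

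Some transcripts were higher or lower in the knockout in both replicates. The knockout libraries lay above both control libraries for 1229 transcripts (11.2% of those tested) and below both for 1277 (11.7%), together 22.9%. If genotype made no difference and the libraries were interchangeable, a share of about 0.333 would show no overlap. These counts are therefore not a result about the knockout. Among the 9307 transcripts listed in all 4 files, 66 (0.709%) were at least 2-fold higher and 36 (0.387%) at least 2-fold lower in both replicates, while 76 were 2-fold changed in opposite directions. On RPKM as deposited, without rescaling between libraries, 88 were higher and 20 lower. With an unlisted transcript taken as 0, 99 of 10936 (0.905%) were higher and 97 (0.887%) were lower. Of the 244 transcripts that were 2-fold higher in replicate 1, 27.0% were 2-fold higher in replicate 2 and 20.1% were 2-fold lower. Over all 9307, 20.8% were 2-fold higher in replicate 2 and 20.3% were 2-fold lower. The median length of the coding region was 1021.5 nt for the 66 higher transcripts and 1017 nt for the 36 lower ones, against 1383 nt over all 9307. Short transcripts, of at most 600 nt, were 31.8% and 30.6% of these lists, against 13.1% of all. Among transcripts listed in all 8 files, short ones had the widest spread of starved ratios. Their standard deviations were 0.56 in replicate 1 and 1.35 in replicate 2. These were 0.46 and 1.33 for longer ones up to 3000 nt, and 0.37 and 1.19 beyond. Median levels fell in the same order, at 175, 30.3 and 8.02 RPKM, and the added 1 RPKM shrinks ratios of low transcripts most. The part of spread and level in this excess was not tested.

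These 66 and 36 transcripts were chosen on the starved Ribo-seq ratios, so those ratios support nothing. The fed cells and the eIF3-80S assay gave other libraries, but same-numbered fed and starved libraries deviated together (correlations of 0.286 in the control and 0.364 in the knockout), so fed replicate 1 is not independent of starved replicate 1. Over all 9016 transcripts the starved ratio of replicate 1 had a Pearson correlation of 0.108 with the fed ratio of replicate 1 and of -0.073 with that of replicate 2, and the starved ratio of replicate 2 had 0.0733 and 0.00481. In fed replicate 1, the ratio of knockout to control was above 0 for 43 of the 58 higher transcripts listed in all 8 files, at a median of 0.81, and below 0 for 27 of the 36 lower ones, at a median of -0.80. Over all 9016 transcripts, 51.6% were above 0 and 48.4% below. In fed replicate 2, 37 of 58 higher transcripts were above 0, at a median of 0.25, but only 16 of 36 lower ones were below 0, at a median of 0.20. The direction seen in starved cells was thus the more frequent one for both lists in fed replicate 1, and for the higher list alone in fed replicate 2. No test was made of these counts, because the lists were drawn after the values were seen.

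The eIF3-80S assay sequences footprints of 80S ribosomes that carry eIF3, and it has 1 starved knockout library (229599 reads) and 2 starved control libraries (52148 and 129252 reads). Its files list fewer transcripts, so few members of either list had a value in both libraries of a pair. Controls 1 and 2 listed 1919 and 4864 transcripts, against 6327 in the knockout. Entry into a pair thus depended most on being listed in the control. The part of this selection in the directions below was not tested. Against control 1, 0 of 10 lower transcripts were above 0 and 10 were below, at a median of -0.39, while the higher transcripts split into 6 above and 5 below. Against control 2, 13 of 17 lower transcripts were below 0, at a median of -0.47, and 13 of 17 higher transcripts were above 0, at a median of 0.52. Over all transcripts listed in each pair, 50.1% were above 0 with either control. The 2 ratios share the knockout library and are not independent of each other. The lower transcripts thus mostly took the direction of the Ribo-seq libraries in this assay against both controls, and the higher transcripts did so against control 2. In fed cells, where there is also 1 eIF3-80S knockout library, 10 of 17 and 9 of 18 higher transcripts were above 0, and 6 of 10 and 8 of 12 lower transcripts were below 0. By coding length the starved eIF3-80S ratio was close to 0, with medians of -0.085 and 0.0096 against controls 1 and 2 over 323 transcripts of at most 600 nt and of 0.092 and 0.12 over 301 transcripts of more than 3000 nt.

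The transcript with the largest decrease common to both replicates, among those listed in all 4 files, has a coding length of 2751 nt. Its level was 139.9 and 47.6 RPKM in the starved control and 17.0 and 4.74 RPKM in the starved knockout, from 2250, 197, 137 and 11 reads. The groups did not overlap, and the log2 ratios were -3.08 and -3.05 in replicates 1 and 2. In eIF3-80S libraries it had 125.5 and 180.0 RPKM in the starved control and 57.0 RPKM in the starved knockout, again lower. In fed cells it had 34.6 and 58.3 RPKM in the control and 7.39 and 62.7 RPKM in the knockout, so the fed knockout was lower in replicate 1 and level with the control in replicate 2. Limma gave a log2 fold change of -3.06 ± 0.92 (SE) in starved cells with an adjusted p of 1.

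The transcript with the largest common increase has 1008 nt. It had 2.55 and 0.659 RPKM in the starved control and 25.4 and 11.7 RPKM in the starved knockout, with the reads rising from 15 to 75 in replicate 1 and from 1 to 10 in replicate 2. The ratio was 10.0 in replicate 1 (exact 95% counting interval 5.69 to 18.7) and 17.8 in replicate 2 (2.54 to 774). In fed cells the control had no value in replicate 1 and 0.982 RPKM in replicate 2, and the knockout had 23.1 and 0.735 RPKM. A transcript of 435 nt came next, with 15.7 and 9.16 RPKM in the starved control against 71.5 and 87.1 RPKM in the starved knockout. In fed cells it had 16.5 and 12.1 RPKM in the control and 94.0 and 15.3 RPKM in the knockout. For these 3 transcripts the starved knockout libraries and fed knockout replicate 1 stood apart from the control libraries, while fed knockout replicate 2 lay at the level of the fed controls. The next transcripts by common change did not show this pattern. Fed levels of a higher one of 2712 nt were 85.7 and 12.2 RPKM in the control and 92.3 and 11.5 RPKM in the knockout. For lower ones of 417 and 486 nt, the fed control had 1391 and 6.33 RPKM and 128 and 98.4 RPKM. Their fed knockout had 104 and 99.5 RPKM and 79.9 and 386 RPKM. Limma's log2 fold changes in starved cells were 2.85 ± 1.18 (SE) for the transcript of 1008 nt and 2.57 ± 0.85 for that of 435 nt, each with an adjusted p of 1.

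Of 5512 transcripts with at least 20 RPKM on average, 588 were higher and 704 lower in the knockout without overlap between the groups. Together these were 23.4%, near the 22.9% over all tested transcripts. Identifiers are given for those with the largest mean log2 ratio in each direction. Replicate 2 had the larger ratio for most of them. Of the first 10 in each direction, 10 and 10 were 2-fold changed in replicate 2, and 3 of the higher and 4 of the lower in replicate 1. ENSMUST00000154473, with a coding length of 309 nt, had 22.1 RPKM (40 reads) in starved control replicate 1 and was not listed in replicate 2, against 34.3 RPKM (31 reads) and 111 RPKM (29 reads) in the knockout. Its fed levels ran the other way, with 73.4 and 99.3 RPKM in the control and 26.2 and 14.4 RPKM in the knockout. ENSMUST00000060738, of 285 nt, had 9.60 RPKM in starved control replicate 1 and was not listed in replicate 2, against 15.6 and 108 RPKM in the knockout, so the large value is that of knockout replicate 2 alone. Its limma log2 fold change of 3.63 ± 1.59 (SE) and that of ENSMUST00000154473, 3.63 ± 1.31 (SE), had an adjusted p of 1.

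ENSMUST00000086084, whose coding region spans 522 nt, had the smallest unadjusted limma p of all transcripts in the starved comparison, 0.000179, with an adjusted p of 1. It had 22.3 RPKM (68 reads) and 98.0 RPKM (77 reads) in the starved control and was listed in neither knockout library. An assumed 5 reads in each knockout library would be 3.28 and 11.3 RPKM. Knockout replicate 2 lists transcripts down to 1 read, so 5 reads is not its own floor. The mean of the control libraries was 8.23-fold the mean of these assumed values. This is a ratio of means and not a bound that holds within each replicate. In fed cells it was low in every library, with 4.57 and 0.632 RPKM in the control and 2.21 and 1.42 RPKM in the knockout, so the starved control libraries were the high ones. The interaction with feeding was -5.30 ± 1.49 (SE) on the log2 scale, with an adjusted limma p of 1. ENSMUST00000031318, of 399 nt, had 78.5 and 45.0 RPKM in the starved control and 36.0 RPKM in knockout replicate 1, and it was not listed in knockout replicate 2. Its fed levels were 31.4 and 54.6 RPKM in the control and 16.2 and 52.0 RPKM in the knockout, and its limma log2 fold change was -3.34 ± 1.60 (SE, adjusted p = 1). None of the 4 identifiers was listed in a starved eIF3-80S file.

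**Figure D5:**
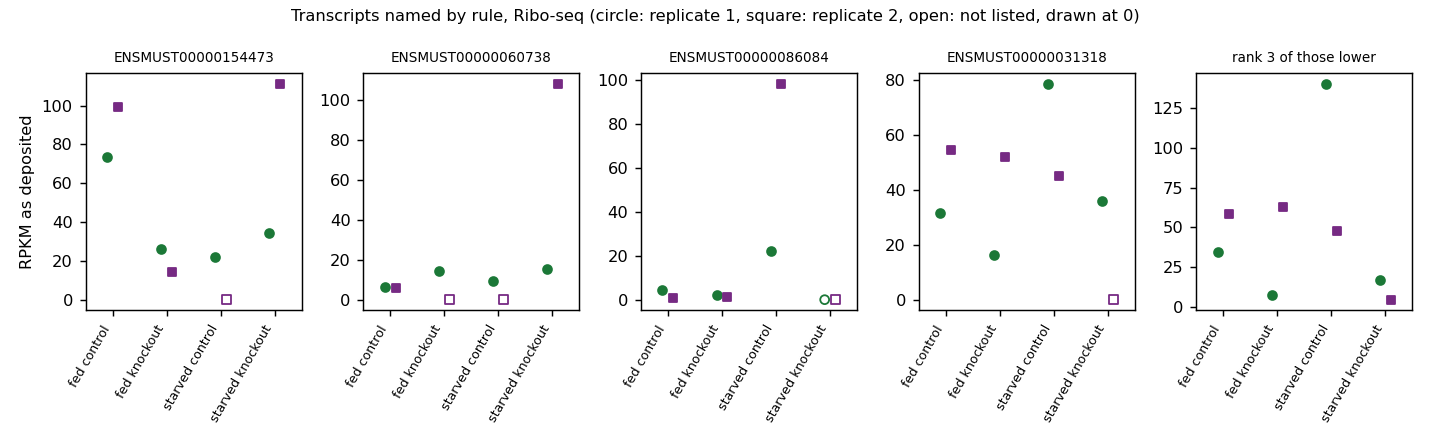
RPKM of 5 transcripts in the 8 Ribo-seq libraries of fed and starved control and knockout cells (circles replicate 1, squares replicate 2, open symbols not listed and drawn at 0). For the first pair of transcripts the high starved value is knockout replicate 2, at 111 and 108 RPKM, and for the third panel the starved control libraries, at 22.3 and 98.0 RPKM, are the high ones. The last panel is the transcript of 2751 nt.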

How the data were processed

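Ribo-seq sequences ribosome-protected fragments. Fractions of sucrose gradients were treated with RNase I before a gel selection of fragment size, per the labels' protocols. The authors deposited 1 file per library with transcript identifiers and RPKM. Cutadapt, STAR and GRCm38 are named in the submitters' processing notes. The sources used here do not give the read counter, the annotation or a filter.

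Whole reads, library totals and coding lengths were recovered from ratios of a transcript's RPKM between libraries (at least 6 libraries, relative tolerances of 1e-09 and 3e-14), for 10774 of 15354 transcripts. Of these lengths, 99.88% were multiples of 3. On 4000 simulated transcripts, 100% of the recovered reads were exact. RPKM was rescaled by median ratios, with unlisted values as 0. Those averaging 1 RPKM or more were fitted on log2(RPKM + 1) with limma 3.58.1 in R 4.3.3 (lmFit and eBayes, trend on, two-sided tests) over 12 Ribo-seq libraries in 6 groups (6 residual degrees of freedom). This scale understates changes of low transcripts. A call needed an adjusted p under 0.05. Shares were compared by exact permutation tests. Counting intervals cover counting error only.

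No starved library duplicated another, with a mean chi-square per transcript of 21.6 to 97.3 over their pairs. Deviations of same-numbered libraries correlated at 0.188 to 0.453 in the 6 pairs of the control and knockout groups, and at 0.0803 to 0.445 over transcripts listed in every library, where fed control with starved knockout was the lowest. The starved control and knockout had 0.453 and 0.445, and the numbers were taken to pair them. With starved Thiamet-G the correlations were -0.394 to -0.274 in 5 pairs. Its titles and file names carry opposite replicate numbers.

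Transcripts were named by rule as the largest mean within-replicate ratios among transcripts of at least 20 RPKM without overlap, limited to 2 identifiers a direction. The transcripts of 2751, 1008, 435, 2712, 417 and 486 nt and the most abundant ones were described after their values were seen. Members, lists and classes were chosen with earlier results of these data known. Lists of genes could not be used. Alternatives covered the pseudocount, the scaling, the filter, blocks for replicate and batch, limma-voom and leaving out libraries.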

Additional observations from a re-analysis of the deposited data

Results flagged for a closer look

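The share of reads on coding regions of at most 600 nt differed between knockout and control by 2.17 points in starved cells and by -12.1 points in fed cells, a gap of 14.26 points. It was flagged because both starved replicates moved upward (0.590 and 3.75 points) and both fed replicates downward (-18.0 and -6.14 points). The exact permutation p of the gap was 0.333, the smallest that 2 within-replicate differences in each setting can give. Fed control replicate 1, at 43.3%, had the highest share of the 8 libraries, and its part in the gap was not tested.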

How the results depend on the processing

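The starved contrast and its interaction with feeding gave 0 calls under every alternative that was run. These included limma-voom, the replicate block and the block by the low-read split. Unadjusted p-values under 0.05 in starved cells numbered 27 without starved knockout replicate 2, 44 without starved control replicate 2, 635 without starved control replicate 1 and 652 without starved knockout replicate 1, against 147. Only the 4 starved libraries gave 84, and 486 with the replicate block, at a lowest adjusted limma p of 0.196. For the shares of reads, the replicate block gives the same 2.17 and -0.711 points by construction, since every group holds both replicate numbers, and it says nothing about stability. Single replicates gave 0.590 to 3.75 and -1.54 to 0.118 points. The 66 transcripts 2-fold higher in both replicates became 26 with a pseudocount of 5 RPKM and 43 with a mean of at least 10 RPKM. The 36 lower ones became 18 with a pseudocount of 5 RPKM, 20 on RPKM as deposited and 97 with unlisted values as 0. For the pseudocount, a larger constant shrinks every ratio. For the scaling, the cause was not tested. The correlation of the replicates' ratios was 0.0537 to 0.0632 under all 7 alternatives. Alternatives for lists of genes were not run, since no identifier had a symbol. Depth limits replicate 2 most, where the knockout had a median of 29 reads per listed transcript. The counts of transcripts 2-fold changed in both replicates, their alternatives and the correlation were chosen after seeing the data.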
